A study of Homo sapiens with 3 samples.

Results

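The genes of the integrin and laminin subunits were taken from an array study of KYSE180, an established line from a human squamous carcinoma of the oesophagus. They were chosen by gene symbol (ITGA or ITGB with a subunit number or letter, and LAMA, LAMB or LAMC with a digit). The rule used no measured value, but it was set with earlier results of these data known. Of 18132 genes with a probe set of their own, 35 were members, namely 18 integrin alpha, 7 integrin beta and 10 laminin genes, read by 101 of the 49293 probe sets of the array. ITGB6 was found only on 2 probe sets that carry several gene symbols, so it has no value here, and LAMA3 was not analysed here. Proteins that bind integrins (ITGB1BP1, ITGB1BP2, ITGB3BP) and the integrin-like gene ITGBL1 were not counted as members.

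There were 3 arrays with 1 array in each group. The control array was labelled only as control, with no statement for that sample of a reagent, an empty vector or a negative-control siRNA. In the vector group the cells received an LZRS plasmid carrying HOTAIR, a long non-coding RNA, with Polyfect as the carrier. In the siRNA group the cells received a mixture of Stealth siRNAs against HOTAIR, 100 pmol, with Lipofectamine2000. RNA was taken at 48 h in both arms. The design text names a negative-control siRNA without tying it to the control array. The arms therefore differed in carrier and in the kind of nucleic acid as well as in the direction of the HOTAIR manipulation, and these cannot be told apart. One label of the siRNA sample names a HOTAIR cell line, while its title and cell line field name KYSE180, which was used.

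Integrins are cell surface receptors made of an alpha and a beta subunit that bind matrix proteins outside the cell and link them to the actin or keratin cytoskeleton inside it. Laminins are trimers of an alpha, a beta and a gamma chain and form the sheet of the basement membrane on which squamous epithelium rests. In basal cells of such epithelium the integrin of ITGA6 and ITGB4 holds the cell to laminin at hemidesmosomes, whereas integrins with ITGB1 bind laminin, collagen or fibronectin at focal adhesions. The integrins of ITGAV with ITGB6 or ITGB8 release TGF-beta from its latent form.

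All values are log2 signals, so a difference of 1 is 2-fold. Each gene was read from its brightest probe set, and counted where the mean of that set over the arrays reached 5.28, the middle value over the whole array, which kept 19 of the 35 members (13 integrin and 6 laminin genes). Since each group is a single array, differences lack a replicate check and carry no p-value, and this number of arrays limits their precision. The error at hand was the spread between probe sets of the same gene, whose SD over 11734 genes was 0.41 for either arm against control and 0.26 between the arms. Over the 10917 genes counted, the control array held 77.2% of the variance specific to single arrays, and the comparisons with control share that array. The platform table named 0 probe sets for HOTAIR, so neither manipulation could be checked on its target. Squamous epithelial markers were bright on each array (KRT5, KRT14, SOX2, CDH1 and EPCAM, 11.43 to 13.38), while 3 of 7 leukocyte markers, the pan-leukocyte gene PTPRC among them, and 3 of 7 fibroblast markers lay under the lower quartile of every array. Of the fibroblast and endothelial markers 0 reached the level of 5.28. Other markers did reach it, namely CD68 and ITGAL of the leukocyte list, GP9 of 5 platelet genes, and DES, MYH11, ACTA1 and TUBB3 of 5 muscle and nerve genes. The highest of these in control cells were CD68 (7.49), TUBB3 (7.07) and GP9 (6.36), and each of the 7 was lower than control in both arms; their part in the results was not tested.

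The members at least 2-fold above control in either arm were ITGA2, ITGAV, ITGB1, ITGB8 and LAMB1. Their upstream sequences are shown because these genes were higher together. Each run is the 250 bases before the start of the gene, 5′ to 3′ on the strand of the gene, from RefSeq on GRCh38.p14, using the start that lies farthest 5′ where a gene has several. Capitals mark the GC box, GGGCGG on either strand, which Sp1-type factors can bind.

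ITGA2 (chr5:52989102-52989351, plus strand): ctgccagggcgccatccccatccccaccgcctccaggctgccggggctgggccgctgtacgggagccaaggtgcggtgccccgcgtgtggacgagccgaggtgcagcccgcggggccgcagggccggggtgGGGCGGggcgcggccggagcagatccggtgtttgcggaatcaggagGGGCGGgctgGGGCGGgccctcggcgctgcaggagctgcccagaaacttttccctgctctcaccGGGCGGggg
ITGAV (chr2:186589806-186590055, plus strand): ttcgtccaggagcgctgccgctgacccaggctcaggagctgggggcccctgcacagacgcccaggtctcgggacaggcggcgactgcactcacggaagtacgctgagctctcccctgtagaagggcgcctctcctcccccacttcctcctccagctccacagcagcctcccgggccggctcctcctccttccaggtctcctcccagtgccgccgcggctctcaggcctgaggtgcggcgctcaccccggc
ITGB1 (chr10:32958231-32958480, minus strand): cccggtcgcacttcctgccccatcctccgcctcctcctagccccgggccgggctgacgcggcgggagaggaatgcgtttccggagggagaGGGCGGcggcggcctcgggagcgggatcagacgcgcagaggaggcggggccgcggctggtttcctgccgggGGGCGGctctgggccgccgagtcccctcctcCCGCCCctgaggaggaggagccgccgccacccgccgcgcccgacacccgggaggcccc
ITGB8 (chr7:20330650-20330899, plus strand): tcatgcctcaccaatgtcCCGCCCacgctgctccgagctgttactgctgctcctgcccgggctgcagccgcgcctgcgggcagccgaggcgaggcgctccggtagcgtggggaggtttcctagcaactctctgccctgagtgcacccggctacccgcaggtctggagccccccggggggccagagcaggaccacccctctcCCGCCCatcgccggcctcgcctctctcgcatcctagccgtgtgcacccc
LAMB1 (chr7:108003162-108003411, minus strand): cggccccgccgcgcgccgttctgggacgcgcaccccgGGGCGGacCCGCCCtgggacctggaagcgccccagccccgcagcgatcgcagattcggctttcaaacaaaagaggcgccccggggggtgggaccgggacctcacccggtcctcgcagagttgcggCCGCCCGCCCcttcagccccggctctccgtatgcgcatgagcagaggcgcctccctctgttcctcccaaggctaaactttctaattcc

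The GC box letters occurred 4 times upstream of ITGA2, 3 times upstream of ITGB1, 2 times upstream of ITGB8 and 4 times upstream of LAMB1, where a pair of them overlap. They occurred 0 times upstream of ITGAV. Windows were found for 24 of the 35 members, and 12 of these 24 (50%) held the GC box, against 42.2% of 27305 genes with a window. Of the members with a window that were counted on the array, 8 of 14 (57.1%) held it, against 68.0% of 9065 genes. The AP-1 letters TGANTCA occurred in 0 of the 24 windows (6.57% of all genes). The TEAD letters GGAATG, on either strand, occurred in 4 of 24 (16.7%, against 12.0% of all genes), of which ITGB1 is the one shown here. None of these overlapped a GC box in the 5 runs shown. Of the 5 genes that were higher together, all but ITGAV thus held the GC box, which is common among the genes counted. A match describes letters in this window only.

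**Figure D1:**
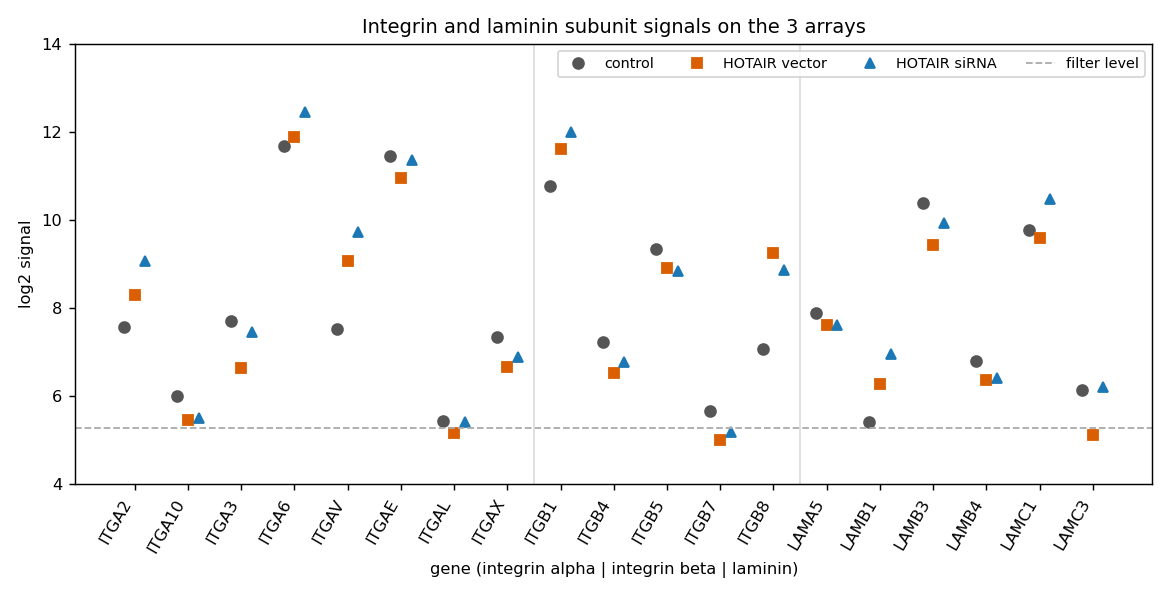
Log2 signal (vertical axis) of the 19 integrin and laminin genes above the filter level (dashed, 5.28) on the control (grey circle), vector (orange square) and siRNA (blue triangle) arrays, 1 array each. ITGAV and ITGB8 stand furthest from control, and LAMC3 is low on the vector array alone.

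ITGB1 encodes the beta subunit shared by most matrix-binding integrins. Its signal was 10.77 (control), 11.61 (vector) and 12.01 (siRNA). It was thus lowest in control and highest with siRNA, by 0.84 in vector and 1.24 in siRNA cells (2.36-fold). The 4 probe sets of ITGB1 above the filter level ranged from 0.71 to 1.26 for vector and from 1.08 to 1.84 for siRNA minus control, so both arms lay above control on each of them. The fifth, at 2.63 on average, read near background on all arrays.

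ITGA2, which pairs with ITGB1 as a collagen receptor, followed the same order. Its signal was 7.57 in the control, 8.30 with the vector and 9.06 with the siRNAs. The siRNA array was 2.80-fold above control (1.48), and the other probe set of ITGA2 gave 1.55. For the vector the difference was 0.72, and 1.01 on the other probe set, so this gene sat at the edge of 2-fold there. ITGA10, a collagen receptor chain of cartilage, was lower than control in both arms, at 6.00, 5.44 and 5.51. The further collagen-binding chains ITGA1 and ITGA11 stayed below the filter level on every array.

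ITGAV encodes the alpha subunit that binds RGD motifs in vitronectin, fibronectin and latent TGF-beta. Its signal was 7.53 (control), 9.06 (vector) and 9.73 (siRNA). It was above control by 1.53 in vector and 2.20 in siRNA cells, the latter 4.59-fold. This rests on a probe set ending in _s_at. Of the 4 dimmer probe sets 3 were higher in both arms, by 0.64 to 1.71 for vector and 0.83 to 1.70 for siRNA cells. The remaining one, the brightest once names ending in _x_at or _s_at were left out, read 5.06, 4.996 and 5.27 and gave -0.064 and 0.21. The size of the ITGAV difference therefore depends on which probe set is read.

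ITGB8, whose only known alpha partner is ITGAV, was the member with the largest difference from control in vector cells. Its signal was 7.06 in the control, 9.24 with the vector and 8.85 with the siRNAs. It was 4.53-fold above control in vector cells (2.18) and 3.47-fold in siRNA cells (1.79). Its other probe set above the filter level gave 1.55 and 0.66, so the siRNA difference was under 2-fold there. Among the members higher in both arms, ITGB8 was the single gene with the vector array on top.

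ITGB5, another beta partner of ITGAV and a vitronectin receptor chain, did not follow it. Its signal was 9.33 (control), 8.91 (vector) and 8.84 (siRNA), on a single probe set. Both arms lay below control, by less than the 2-fold mark. ITGB3, a further beta partner of ITGAV, and ITGA5, the fibronectin receptor chain, were below the filter level. ITGA5 read 5.22, 4.88 and 4.40 in control, vector and siRNA cells.

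**Figure D2:**
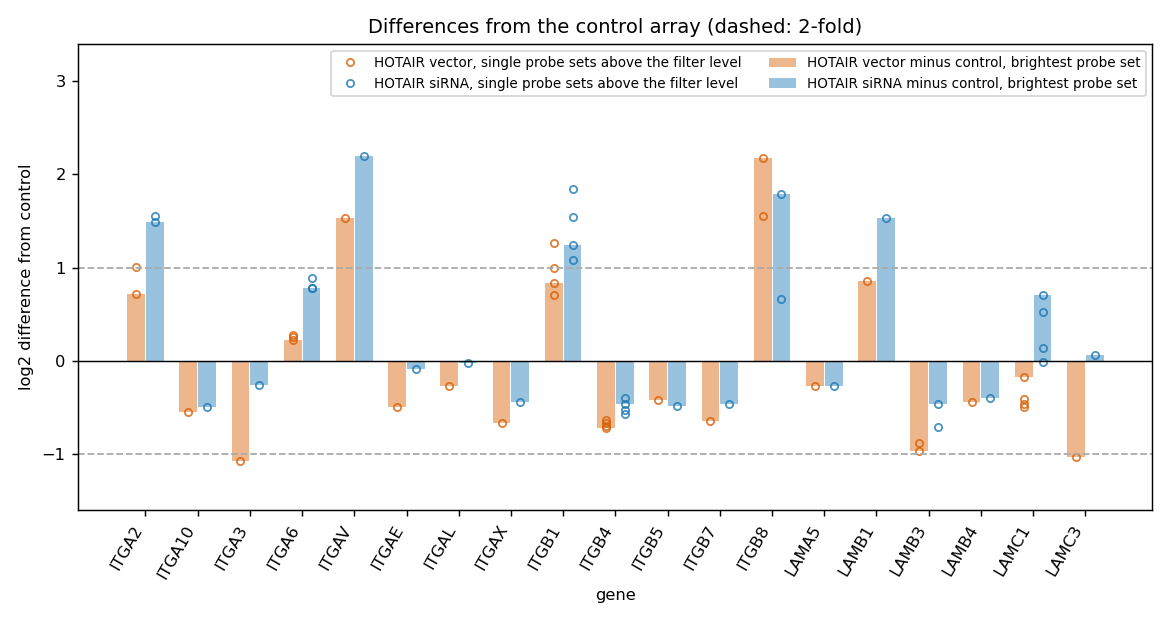
Log2 difference from the control array for each member above the filter level, as bars for the brightest probe set in vector (orange) and siRNA (blue) cells, with open circles for each probe set of the gene above the filter level. Dashed lines mark 2-fold, which ITGAV and ITGB8 pass upwards in both arms and ITGA3 and LAMC3 pass downwards in vector cells.

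The chains of the hemidesmosome went apart from each other. ITGA6, the alpha chain, read 11.67 in the control, 11.89 with the vector and 12.45 with the siRNAs. Its 3 probe sets gave nearly the same differences from control, 0.22 to 0.28 for vector (SD 0.027) and 0.78 to 0.88 for siRNA cells (SD 0.061). ITGB4, its beta partner, read 7.24, 6.52 and 6.78 on these arrays and was below control in both arms. All 8 probe sets of ITGB4 lay below control, from -1.05 to -0.58 for vector and from -0.61 to -0.40 for siRNA cells. These 2 chains thus had opposite signs against the same control, without either reaching 2-fold on its brightest probe set.

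ITGA3, the laminin receptor chain that pairs with ITGB1, read 7.71 (control), 6.64 (vector) and 7.45 (siRNA). It was 2.10-fold below control in vector cells (-1.07) and 0.26 below it in siRNA cells. It missed 2-fold after cyclic loess (-0.91), after centring (-0.89) and with the mean over its 3 probe sets (-0.84), so this call depends on the scaling. ITGA7, the laminin receptor chain of muscle, was below the filter level.

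Of the chains known from leukocytes, ITGAE, whose protein pairs with ITGB7 to bind E-cadherin, was bright. It read 11.45, 10.95 and 11.36 in control, vector and siRNA cells, below control by -0.50 with the vector and -0.09 with the siRNAs. ITGB7 lay just inside the filter, at 5.65, 5.005 and 5.18. ITGAX read 7.33, 6.66 and 6.88 and ITGAL 5.43, 5.16 and 5.41, each on a probe set ending in _x_at, while the other 3 probe sets of each gene were below the filter level. PTPRC, which marks all leukocytes, read 2.74, 2.71 and 2.59 on the same arrays, under their lower quartiles. ITGB2, the beta partner of ITGAL and ITGAX, was below the filter level at 4.07, 3.42 and 3.71. None of these chains was 2-fold apart in any comparison.

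**Figure D3:**
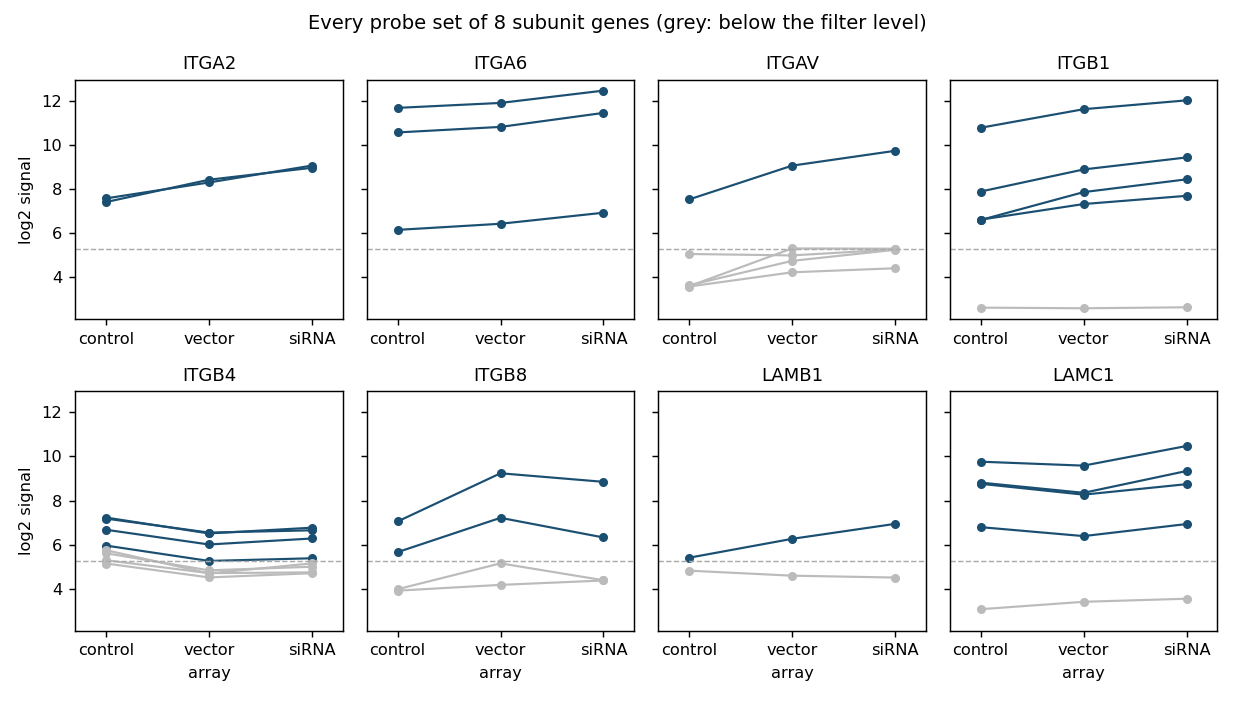
Log2 signal (vertical axis) on the control, vector and siRNA arrays for every probe set of 8 subunit genes, with each line a probe set, dark where its mean reached the filter level (dashed) and grey where it did not. The dark lines of ITGA6 and ITGB1 run upward and those of ITGB4 downward from control, while the probe sets of ITGAV and LAMB1 disagree.

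The 6 laminin genes above the filter had a median of -0.36 for vector and -0.10 for siRNA minus control, close to the -0.42 and -0.09 of the 13 integrin genes. LAMB1, the beta chain of the widely made laminins, read 5.42 in the control, 6.27 with the vector and 6.95 with the siRNAs. It was 2.89-fold above control in siRNA cells (1.53) and by 0.85 in vector cells. Its other probe set, below the filter level, went the other way by -0.23 in vector and -0.31 in siRNA cells. LAMB4, the coding gene next to LAMB1 on chromosome 7, read 6.80, 6.36 and 6.40 and was below control in both arms, so these neighbours differed in sign.

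LAMC1, the gamma chain that joins LAMB1 and to which nidogen binds, read 9.76 (control), 9.58 (vector) and 10.47 (siRNA). It was lowest with the vector and highest with siRNA, by -0.89 between the arms. All 5 probe sets had the vector below the siRNA array, by -0.99 to -0.14. Against control, its 4 probe sets above the filter level ranged from -0.49 to -0.18 for vector and from -0.02 to 0.71 for siRNA cells. LAMC3, a gamma chain of narrower use, read 6.13, 5.10 and 6.20 on its single probe set, with the vector array below the level of the filter. It was 2.04-fold below control in vector cells (-1.03) and near it in siRNA cells (0.07). The vector difference was -0.72 after cyclic loess and -0.84 after centring.

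LAMB3, the beta chain of the laminin that anchors hemidesmosomes, read 10.40 in the control, 9.43 with the vector and 9.93 with the siRNAs. Both of its probe sets were below control in both arms, by -0.96 and -0.88 for vector and by -0.46 and -0.71 for siRNA cells. The vector difference was thus close to 2-fold on either one. LAMA5, the alpha chain of the laminin found under most adult epithelia, read 7.88, 7.61 and 7.61, and the arms did not differ on this probe set. LAMA1, LAMA2, LAMA4 and LAMB2 were below the filter level.

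The 16 members below the filter level were ITGA1, ITGA11, ITGA2B, ITGA4, ITGA5, ITGA7, ITGA8, ITGA9, ITGAD, ITGAM, ITGB2, ITGB3, LAMA1, LAMA2, LAMA4 and LAMB2. On the brightest probe set of each, signals ran from 2.61 to 5.64 over the 3 arrays, and 0 were 2-fold apart in any comparison. A dimmer probe set of ITGA5 gave -1.01 for vector minus control. All 4 probe sets of ITGA5 lay below control in both arms. The platelet chain ITGA2B, with a mean of 5.22, was the nearest to the filter from below. Array signals this low are compressed, so a lack of difference among these genes is not informative.

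Against control in vector cells, 2 of 19 members were at least 2-fold higher (ITGAV and ITGB8, 10.5%) and 2 were lower (ITGA3 and LAMC3, 10.5%). Of all 10917 genes counted, 15.2% were higher and 2.05% lower. The higher share was thus under that of all genes, and the lower share above it, on a count of 2. The median of the 19 was -0.42, against -0.18 for all genes. Cyclic loess moved the median of all genes to -0.03 and turned the split to 3 higher (with LAMB1) and 0 lower, and centring gave 4 higher (with ITGB1 and LAMB1) and 0 lower. With the filter at the 75th percentile the median of the 10 members left was 0.023.

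In siRNA cells against control, 5 of 19 members were at least 2-fold higher (ITGA2, ITGAV, ITGB1, ITGB8 and LAMB1, 26.3%) and 0 were lower. The shares of all genes were 14.9% and 1.85%. ITGA6 (0.78) and LAMC1 (0.71) lay between the 5 higher genes and the rest. Of the 19 members, 8 were above control (42.1%), near the 41.2% of all genes. The median of the 19 was -0.09, against -0.17 for all genes. The sign of this median followed the genes counted, at 0.37 over the 13 kept with the mean over probe sets and 0.75 over the 10 brightest. Bulk RNA cannot tell more cells with a transcript from more transcript in each cell, here or in any value above.

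By order, 11 of 19 members lay below control in both arms (53.5% of all genes did) and 6 above it in both (35.5% of all genes). The 6 were ITGA2, ITGA6, ITGAV, ITGB1, ITGB8 and LAMB1. In 5 of these the siRNA array was the highest and the vector array in the middle, an order found in 16.0% of all genes. With steps of at least 1.5-fold on each side, the vector array was in the middle for ITGA2, ITGAV and LAMB1, against 0.55% of all genes. Only LAMC1 and LAMC3 had the control between the arms, both with the vector lowest (5.69% of all genes), and neither by 1.5-fold on each side.

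The comparison of the arms leaves out the control array. In vector minus siRNA, 16 of 19 members were below 0 (84.2%), against 47.9% of all genes. The median was -0.40, against 0.01 for all genes. Integrin genes had a median of -0.26 (11 of 13 below 0) and laminin genes of -0.59 (5 of 6 below 0, with LAMA5 at 0). After repeated quantile normalization, cyclic loess or centring, 17 of the 19 were below 0. Past 2-fold, 1 member was lower, LAMC3 at -1.10, and 0 were higher, while 1.85% of all genes were lower and 1.73% higher. LAMC1 (-0.89), ITGA3 (-0.81), ITGA2 (-0.76), LAMB1 (-0.68) and ITGAV (-0.67) came next. ITGB8 (0.39) and ITGB5 (0.07) were the members above 0.

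**Figure D4:**
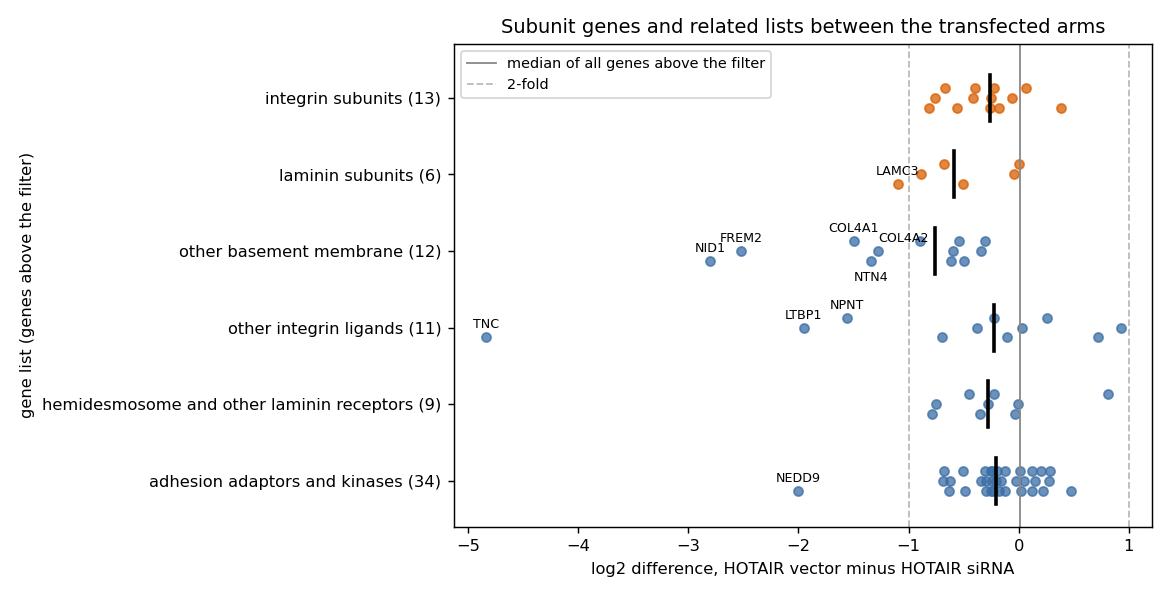
Log2 difference of the vector minus the siRNA array (horizontal axis) for integrin and laminin genes (orange) and for related gene lists (blue), with each point a gene above the filter level and black bars for list medians. The grey line is the median of all genes (0.01), dashed lines mark 2-fold, and all 12 other basement membrane genes lie to the left of 0.

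Other basement membrane genes, which encode the proteins laminin is assembled with, were lower in vector than in siRNA cells. All 12 above the filter were below 0, with a median of -0.76, and 5 of them (41.7%, against 1.85% of all genes) were at least 2-fold lower. NID1, the nidogen that bridges LAMC1 to type IV collagen, read 8.64 (control), 6.57 (vector) and 9.37 (siRNA), a difference of -2.80 between the arms. FREM2, part of a matrix complex under embryonic epithelia, read 5.56, 5.12 and 7.64, so the siRNA array alone was high. The type IV collagen genes COL4A1 and COL4A2 were lower in vector cells, by -1.50 and -1.28 against siRNA cells and by -1.14 and -1.44 against control. NTN4, a netrin that binds laminin, differed by -1.34 between the arms and was above control by 1.22 in siRNA cells. FRAS1, of the same complex as FREM2, was above control by 1.42 in siRNA cells. When probe sets were averaged, NID1 was at -1.58, FREM2 at -1.84, COL4A1 at -0.84, COL4A2 at -0.73 and NTN4 at -0.77 between the arms, so the last 3 then missed 2-fold. In siRNA cells against control, averaging gave 0.79 for FRAS1 and 0.71 for NTN4, both under 2-fold. For vector minus control it gave -0.66 for COL4A1 and -1.03 for COL4A2.

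Ligands of integrins other than laminin were mixed. Of 11 above the filter level, 3 were at least 2-fold lower and 0 higher in vector than in siRNA cells. These shares were 27.3% and 0%, against 1.85% and 1.73% of all genes. Against control, 2 were higher (18.2%) and 3 lower (27.3%) in vector cells, and 2 higher and 0 lower in siRNA cells, where the shares of all genes were 15.2% and 2.05% for vector and 14.9% and 1.85% for siRNA. The lower ones between the arms were tenascin C, TNC (-4.84, or -2.26 with the mean over probe sets), the latent TGF-beta binding protein LTBP1 (-1.95) and nephronectin, NPNT (-1.56, or -0.63). NPNT read 5.93 in the control, 6.51 with the vector and 8.07 with the siRNAs. EDIL3, which carries an RGD motif that ITGAV integrins bind, was above control in both arms, by 1.69 and 1.43, but by 0.47 and 0.36 with the mean over probe sets. SPP1, or osteopontin, another such ligand, read 4.86 in the control, 6.48 with the vector and 5.76 with the siRNAs. Its control signal lay below the filter level, so it was counted through its signals in the arms. SPP1 was above control by 1.62 in vector and 0.90 in siRNA cells, or by 1.39 and 0.40 with the mean over probe sets. CCN1, a secreted matricellular ligand, was below control by -1.17 in vector cells. TGFBI, a further ligand of the list, was not counted because its mean lay below the filter level. It read 4.74 (control), 6.40 (vector) and 3.97 (siRNA). In vector cells it was thus higher than control by 1.66 and higher than in siRNA cells by 2.42.

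Among 9 genes of the hemidesmosome and other laminin receptors, DST was above control by 1.32 in vector and 1.68 in siRNA cells. It encodes a plakin that ties ITGB4 to keratin. PLEC, of the same list, went the other way, by -0.92 in vector and -0.70 in siRNA cells, without reaching 2-fold. CD151, the tetraspanin partner of ITGA3 and ITGA6, and the basal keratin gene KRT14 were below control in vector cells, by -1.06 and -1.16. In siRNA cells they were at -0.61 and -0.37. DST, CD151 and KRT14 were the genes of the list past 2-fold, 1 higher in each arm (11.1%) and 2 lower in vector cells (22.2%). Of all genes 15.2% were higher and 2.05% lower in vector cells, and 14.9% were higher in siRNA cells. Between the arms 0 of the 9 were 2-fold apart, where 1.73% of all genes were higher and 1.85% lower in vector cells. Of the 9, 8 were lower in vector than in siRNA cells by any amount (88.9%, against 47.9% of all genes).

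Of 34 genes for adhesion adaptors and kinases inside the cell, 1 was at least 2-fold higher and 1 lower than control in each arm (2.94% each way). Over all genes 15.2% were higher and 2.05% lower in vector cells, and 14.9% and 1.85% in siRNA cells. The higher gene was FERMT2 in both arms, which encodes the integrin-activating kindlin of focal adhesions, by 1.10 in vector and 1.73 in siRNA cells (0.30 and 0.85 when its probe sets were averaged). The lower gene in vector cells was NEDD9, a scaffold of the p130Cas family, at -2.11, and it also differed by -2.00 between the arms. In siRNA cells it was VASP, an actin regulator at focal adhesions, at -1.25. The other 31 of the 34 genes, among them the talin gene TLN1, the vinculin gene VCL, the paxillin gene PXN and the integrin-linked kinase gene ILK, did not pass 2-fold in any comparison.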

How the data were processed

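Total RNA was labelled with biotin and hybridised to arrays, 1 per group. The authors deposited log2 signals per probe set. Per the submitters' processing notes RMA was used, with settings not stated in these sources. The log2 scale was read from the range of the values. Since RMA shrinks differences near background, folds of dim genes come out too small. Annotation of the platform named a single gene for 44988 of 49293 probe sets and several for 1832, and left out 2473. All 35 member symbols were found in a RefSeq gene table.

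A gene was read from its brightest single-symbol probe set and counted where the mean of its 3 values was at or above the median probe set mean (5.28). Differences between arrays were called at 2-fold. The members, gene lists and alternatives were chosen with earlier results of these data known. Text values follow a fixed rule: all members above the filter with their 3 signals, other members by range, and from related lists the genes past 2-fold, at most the 4 most different per list and comparison. Counting steps were tested on simulated data. Alternatives were other fold thresholds, filters, probe set choices and scalings (repeated quantile normalization, cyclic loess with span 0.4 and 3 cycles, and centring). Promoter windows came from RefSeq (GRCh38.p14). Python 3.11.15, numpy 2.4.6, pandas 2.3.3, statsmodels 0.14.6 and matplotlib 3.10.9 were used.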

Additional observations from a re-analysis of the deposited data

How the results depend on the processing

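Of the 208 counts and medians recomputed under the alternatives 47 moved, and of 456 single-gene differences 16 moved by more than the probe set spread and 1 reversed. Subunits are named first in each sentence and the 66 genes of the related lists, pooled, after them. With the mean over probe sets, 13 subunits and 52 list genes passed the filter. Subunits then numbered 1 higher and 1 lower for vector minus control and 3 higher for siRNA minus control (median 0.37), with 10 below 0 between the arms and 1 subunit having the vector in the middle by 1.5-fold each side. The list counts were 1 higher for vector and 1 for siRNA minus control, and 4 lower between the arms. Without probe sets ending in _x_at or _s_at, ITGAV in vector minus control reversed to -0.064, and the lists had 2 higher and 5 lower. With no filter 28 of 35 subunits were below 0 between the arms, and 1 list gene was higher there. The filter at the 75th percentile left 10 subunits. Of these 0 were lower than control in vector cells (median 0.023), the siRNA median was 0.75, and between the arms 7 were below 0 with 0 past 2-fold. The lists then had 2 higher for vector, 2 higher and 0 lower for siRNA, and 4 lower between the arms, with 5 of 5 basement membrane genes below 0. After cyclic loess 0 subunits were lower in vector cells and 11 list genes were higher in siRNA cells. After centring 4 subunits were higher and 0 lower in vector cells, and the lists had 4 lower for vector and 11 higher for siRNA cells. At 1.5-fold, 5 subunits were higher and 6 lower in vector cells and 6 lower between the arms. The lists had 22 lower for vector, 15 higher and 6 lower for siRNA, and 3 higher and 19 lower between the arms. At 3-fold, 1 subunit was higher and 0 lower in vector cells, 2 were higher in siRNA cells, and 0 were lower between the arms. The lists had 2 higher and 3 lower for vector, 4 higher and 0 lower for siRNA, and 5 lower between the arms. With the mean over probe sets above the filter level, chosen after seeing the data, 1 subunit had the siRNA array in the middle by 1.5-fold each side. Fewer genes passed the stricter filters, which lowers their counts; the cause of the other moves was not tested. No paired analysis was possible because each group has a single array. Array signals near background limit what the dim members can show.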

Other observations

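ITGBL1, whose product resembles the stalk of integrin beta chains but is secreted, lay below the filter level on all arrays, at 4.42, 4.19 and 4.21 for control, vector and siRNA. ITGB1BP1 encodes a protein that binds the tail of the ITGB1 chain and restrains its activation. Its brightest probe set was close to level, at 10.56, 10.40 and 10.35 on the same arrays. With the mean over its 3 probe sets, ITGB1BP1 was above control by 0.61 in vector and 0.66 in siRNA cells. Its sign against control therefore depends on which probe set is read. ITGB3BP, a centromere protein also known to bind the ITGB3 tail, was above control by 0.97 in vector and 0.70 in siRNA cells, under 2-fold in each. ITGB1BP2, a muscle protein that binds the ITGB1 tail, lay below the filter level, at 4.37, 4.25 and 4.34.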
